A study of Homo sapiens with 6 samples.

Results

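The mitochondrial genome carries 37 genes, and all 37 were found in the count files by a symbol that begins with MT-. They are 13 messenger RNAs (mRNAs), 2 ribosomal RNAs (rRNAs) and 22 transfer RNAs (tRNAs), out of 60609 genes listed and 34998 with a count in any library. Poly(A)-selected RNA was measured by stranded RNA-seq in K562, an established human leukaemia line. In these cells both alleles of EP400, the scaffold and ATPase of the TIP60 complex, carried a dTAG degradation tag. All cells received 500 nM dTAGV-1, which triggers loss of the tagged protein, for 24 h. They were complemented from the AAVS1 safe-harbour locus with WT EP400 (3 libraries) or with Delta-TRRAP EP400, which lacks the SANT and HD domains that hold TRRAP (3 libraries). Each complemented line was a single clone from the same tagged parent, so clone and genotype cannot be told apart, and the replicates measure the spread within a clone.

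Mitochondrial DNA is transcribed from both strands into long RNAs that cover many genes. Transcripts made from the heavy strand, whose genes lie on the plus strand of the reference, hold both rRNAs, most mRNAs and most tRNAs, whereas the light strand gives MT-ND6 and the remaining tRNAs. Excision of the tRNAs frees the mRNAs and rRNAs that lie between them, a poly(A) tail is added to most mRNAs, and for several mRNAs this tail completes the stop codon. MT-ND6 is known for lacking a stable tail, rRNA tails are short and mature tRNAs end in CCA, so the classes are not captured alike by poly(A) selection and levels are not compared between classes as amounts of RNA.

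The 37 genes take up nearly all of the mitochondrial genome, of whose 16569 bases 1211 lie in no gene (chrM of GRCh38, GENCODE release 44). On the plus strand lie 12 mRNAs, both rRNAs and 14 tRNAs, and on the minus strand MT-ND6 and 8 tRNAs. None has an intron. Of the 13 mRNAs, 6 end in T or TA, so that the tail supplies the rest of a stop codon, and 7 carry the whole codon. The ends of the 6 mRNAs on which the comparisons below turn are shown as the last 15 bases of each gene, 5′ to 3′, with the stop codon or the part of it that the DNA encodes in capitals.
MT-CO1 (chrM:7431-7445, plus strand): tacataaaatctAGA
MT-CO2 (chrM:8255-8269, plus strand): gtatttaccctaTAG
MT-ND2 (chrM:5497-5511, plus strand): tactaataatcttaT
MT-ND3 (chrM:10390-10404, plus strand): tagactgaaccgaaT
MT-CYB (chrM:15873-15887, plus strand): tactcaaatgggccT
MT-ND6 (chrM:14149-14163, minus strand): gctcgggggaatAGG
The plus-strand mRNAs are rich in C (29.5% to 36.0% of bases) and poor in G (6.28% to 16.2%). MT-ND6 is the reverse, with 7.05% C and 35.6% G.

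Counts in genes were 39966818 to 42616061 per WT library and 35076835 to 38491513 per Delta-TRRAP library. Mitochondrial genes took 3.64%, 3.18% and 3.71% of the counts in WT and 5.07%, 5.22% and 6.24% in Delta-TRRAP. The groups did not overlap, and the difference of 2.0 percentage points had an exact two-sided permutation p of 0.1, the smallest that 3 against 3 libraries allow. WT replicate 2 was the lowest library of its group and Delta-TRRAP replicate 3 the highest of its own. The difference was 1.47 points without both. In bulk RNA, a change in mitochondrial RNA per cell cannot be told apart from a change in the RNA of other genes or in the share of cells that hold it. All 13 erythroid and megakaryocytic markers of K562 were detected. In sum they reached 38110 to 41315 normalized counts per WT library and 70835 to 76946 per Delta-TRRAP library. Most of this rise was in ALAS2 (mean 1241 in WT and 16645 in Delta-TRRAP) and HBZ (1439 and 10665). ITGA2B fell from a mean of 661 to 89.3. At an adjusted p of at most 0.01 by edgeR, 7 rose and 3 fell, against 30.7% and 27.6% of all genes tested. The 9 fibroblast markers summed to 35.5 to 58.0 per WT library and, almost all from COL1A2, to 910 to 973 per Delta-TRRAP library, with LUM and PDGFRA at 0 throughout. The part of either shift in the results below was not tested.

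Counts were scaled by TMM library size and tested with edgeR's quasi-likelihood test. A gene counted as called when it changed 2-fold or more and its p, adjusted by Benjamini-Hochberg over all 19114 genes tested, did not exceed 0.01. A gene was tested where its mean normalized count was at least 5, which 25 of the 37 mitochondrial genes reached. Of these 25, 1 was called higher in Delta-TRRAP, against 16.5% of all genes tested, and 2 were called lower, against 6.08%. At any fold, 11 passed the adjusted p as higher, against 30.7% of all genes, and 5 as lower, against 27.6%. The other 9 did not pass. The classes differed in their counts: 10 of 13 mRNAs rose and none fell, 1 rRNA rose and 1 fell, and 4 of the 10 tested tRNAs fell and none rose. The median log2 fold change was 0.54 over the 13 mRNAs and 0.03 over all genes tested. The change of 12 of the 13 mRNAs was under 2-fold.

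**Figure D1:**
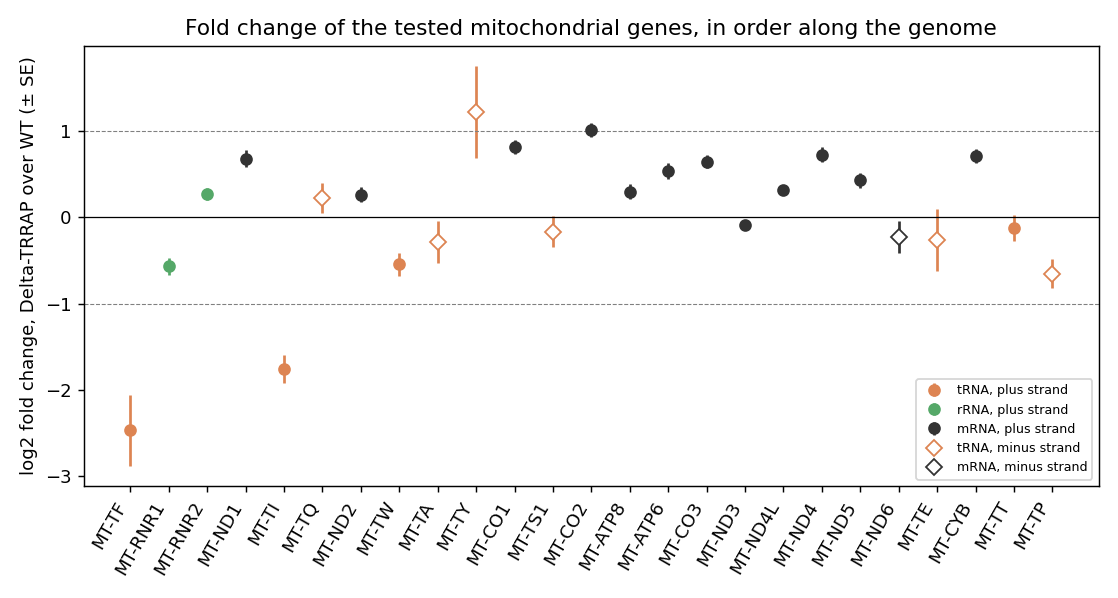
log2 fold change of Delta-TRRAP over WT for the 25 tested mitochondrial genes, in order along the genome, with standard errors from edgeR. Filled points are plus-strand genes, open diamonds minus-strand genes, and dashed lines mark a fold of 2. 10 of 12 plus-strand mRNAs lie above 0 past the adjusted p, while MT-TF and MT-TI lie below the lower dashed line.

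The mRNAs of complex IV, cytochrome c oxidase, the enzyme that passes electrons to oxygen, all rose. MT-CO2, which encodes its copper-binding subunit II, had normalized counts of 91866, 84031 and 95937 in WT and 167651, 171039 and 210131 in Delta-TRRAP. Every Delta-TRRAP library lay above every WT library, and MT-CO2 was the only mitochondrial gene called higher (2.02-fold, log2 1.01 ± 0.08 SE, adjusted p = 2.11e-08 by edgeR). Its fold lay at the threshold: without WT replicate 2, without Delta-TRRAP replicate 3 or without both, no mitochondrial gene was called higher, although MT-CO2 still passed the adjusted p with a log2 fold change of 0.84 without both. MT-CO1, the catalytic subunit I, had 158322, 135623 and 168164 in WT and 250107, 262575 and 304198 in Delta-TRRAP (1.77-fold, log2 0.82 ± 0.08, adjusted p = 3.24e-07). MT-CO3, subunit III, had 165766, 158812 and 176760 in WT and 242670, 247435 and 295993 in Delta-TRRAP (1.57-fold, log2 0.65 ± 0.07, adjusted p = 1.14e-06). The groups did not overlap for either gene.

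Complex I, the NADH dehydrogenase, takes 7 mitochondrial mRNAs, and they did not move alike: 4 rose and 3 did not pass. MT-ND4, a proton-pumping membrane subunit, had 155272, 133780 and 169354 normalized counts in WT and 228531, 242397 and 290233 in Delta-TRRAP (1.66-fold, log2 0.73 ± 0.09, adjusted p = 3.20e-06). MT-ND1, a membrane subunit near the quinone site, had 73206, 60275 and 75417 in WT and 98106, 104205 and 133183 in Delta-TRRAP (1.61-fold, log2 0.68 ± 0.10, adjusted p = 2.20e-05). MT-ND5, the far-end pumping subunit, had 36619, 31037 and 39294 against 42710, 48011 and 53837 (1.35-fold, log2 0.43 ± 0.09, adjusted p = 0.000377). These 3 rises, and that of MT-ND4L, were separate from the WT range in every library. MT-ND4L, a small membrane subunit that shares its transcript with MT-ND4, had 15459, 14403 and 16495 against 18330, 19976 and 19374 (1.24-fold, log2 0.32 ± 0.06, adjusted p = 0.000197).

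The remaining complex I mRNAs gave no change past the threshold. MT-ND2, another pumping subunit, had normalized counts of 148527, 129440 and 155441 in WT and 154638, 164276 and 201008 in Delta-TRRAP (log2 0.26 ± 0.09, adjusted p = 0.0149), and the groups overlapped. The call of MT-ND2 depended on the processing: it passed as higher under DESeq2 (adjusted p = 0.00652), upper-quartile scaling (0.00244), library size alone (0.000886), the replicate block (0.00637), either other filter on low counts, and without Delta-TRRAP replicate 1 or 2. Its log2 fold change ran from 0.14 to 0.33 when a library was left out. MT-ND3, whose loop lies near the quinone site, had 52376, 53666 and 51250 against 48138, 45917 and 53997, which also overlapped (log2 -0.09 ± 0.06, adjusted p = 0.214). The sign of its difference depended on the scaling: it was 0.05 on library size alone and 0.01 with upper-quartile scaling. MT-ND6, the light-strand mRNA, had 17133, 11957 and 16328 against 9844, 10196 and 18692 (log2 -0.23 ± 0.19, adjusted p = 0.290). Delta-TRRAP replicate 3 was above all WT libraries and the other two were below them. Without Delta-TRRAP replicate 3 the log2 fold change of MT-ND6 was -0.60 (adjusted p = 5.72e-05).

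The 5 tested RNAs of a list of 7 long non-coding RNAs were set beside MT-ND6, library by library. MALAT1, an abundant nuclear non-coding RNA, had 34713, 25615 and 35494 normalized counts in WT and 41478, 41125 and 75641 in Delta-TRRAP. NEAT1, the scaffold RNA of paraspeckles, had 6164, 4837 and 6455 against 25752, 28148 and 43213. Within each group, WT replicate 2 was the lowest and Delta-TRRAP replicate 3 the highest for both RNAs, as for MT-ND6. This order was not particular to MT-ND6. It also held for both rRNAs and for all other mitochondrial mRNAs but MT-ATP8, MT-ND3 and MT-ND4L. Between groups MALAT1 and NEAT1 differed from MT-ND6. Delta-TRRAP replicates 1 and 2 were above all WT libraries for both RNAs and below them for MT-ND6. KCNQ1OT1 was also lowest in WT replicate 2 (606) and highest in Delta-TRRAP replicate 3 (570) within its groups. PVT1 was highest in Delta-TRRAP replicate 3 (1951) but lowest in WT replicate 3 (1235), and OIP5-AS1 was lowest in replicate 3 of both groups (11940 and 8198). Of the 7 RNAs on that list 5 were tested. Of these, 3 rose and 2 (KCNQ1OT1 and OIP5-AS1) fell, against 30.7% and 27.6% of all genes tested. The list summed to 44664 to 56024 per WT library and 78369 to 129577 per Delta-TRRAP library. Most of these sums came from MALAT1 and NEAT1. The part of this list in the MT-ND6 result was not tested.

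Complex III and complex V complete the set. MT-CYB, cytochrome b of complex III, had normalized counts of 58376, 51137 and 61297 in WT and 85480, 88945 and 106158 in Delta-TRRAP (1.64-fold, log2 0.72 ± 0.08, adjusted p = 1.28e-06). MT-ATP6, the proton-channel subunit a of ATP synthase, had 82980, 72780 and 87230 against 105979, 108239 and 138529 (1.45-fold, log2 0.54 ± 0.09, adjusted p = 8.38e-05). Neither pair of groups overlapped. MT-ATP8, a small subunit of the same enzyme, had 9809, 11439 and 11055 against 12570, 11540 and 15662 (1.23-fold, log2 0.30 ± 0.09, adjusted p = 0.00839). Its call at any fold was lost under DESeq2 (adjusted p = 0.0832) and when any library but Delta-TRRAP replicate 2 was left out (adjusted p up to 0.0637).

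**Figure D2:**
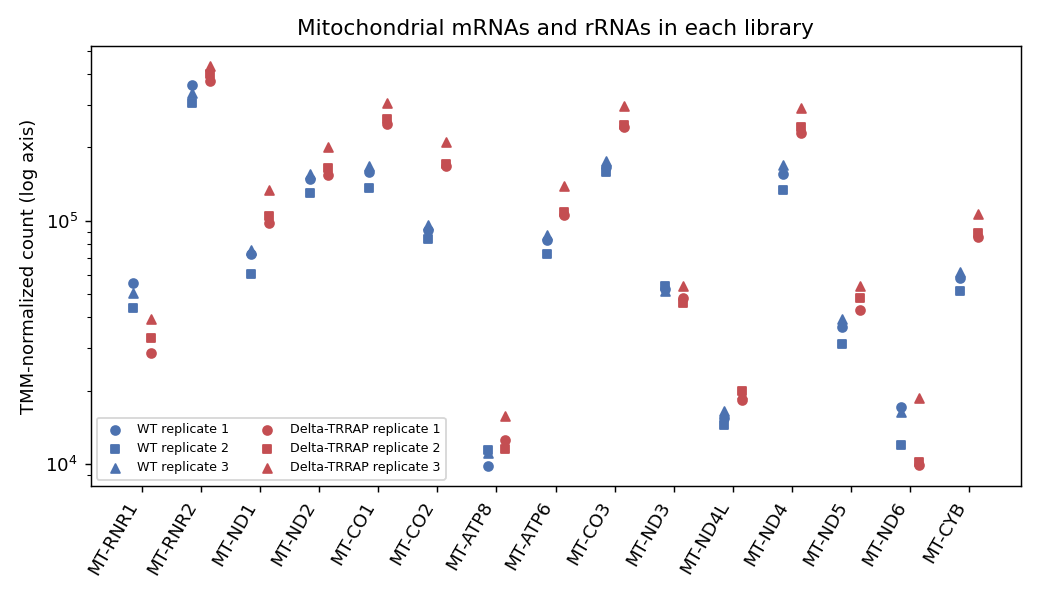
TMM-normalized counts on a log axis of the 13 mRNAs and 2 rRNAs in the 3 WT libraries (blue) and the 3 Delta-TRRAP libraries (red), 1 symbol per replicate. MT-CO2 runs from 84031 to 95937 in WT and from 167651 to 210131 in Delta-TRRAP, whereas for MT-ND3 and MT-ND6 the points of both groups mix.

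The fold changes were set beside gene length and the overlaps between genes. The 4 shortest mRNAs (207 to 525 bases: MT-ATP8, MT-ND4L, MT-ND3 and MT-ND6) had log2 fold changes of -0.23 to 0.32, and the 9 longer ones had 0.26 to 1.01. These ranges overlapped. MT-ATP8 and MT-ATP6 overlap by 46 bases, and MT-ND4L and MT-ND4 by 7. Reads over an overlap are assigned to neither gene, so the split within each pair is uncertain. Within libraries, the log2 ratio of MT-ND4L to MT-ND4 was -3.33, -3.22 and -3.36 in WT and -3.64, -3.60 and -3.91 in Delta-TRRAP, a separation of the groups (difference -0.41, exact permutation p = 0.1). The ratio of MT-ATP8 to MT-ATP6 overlapped between groups (difference -0.24, exact permutation p = 0.2). These 2 ratios were chosen after the fold changes were seen. By stop codon the ranges overlapped too: the 6 mRNAs with an incomplete codon had log2 fold changes of -0.09 to 0.73, and the 7 with a complete one -0.23 to 1.01. The part of length in the results was not tested.

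Nuclear copies of mitochondrial DNA take reads away from these genes, since only uniquely mapping reads were counted. Of all 50-base windows of MT-CO1, 50.6% were found unchanged elsewhere in the genome, and 46.7% of MT-ATP6, 43.6% of MT-ND2 and of MT-RNR1, and 29.0% of MT-CO2. No such window was found for MT-ND3 or MT-ND4L, and few were found for MT-CYB (1.65%) and MT-ND4 (3.54%). The 6 mRNAs with a repeated window of 100 bases had log2 fold changes of 0.26 to 1.01 (median 0.67). The 7 without had -0.23 to 0.73 (median 0.32), so the ranges overlapped. MT-ATP8, MT-ND4L, MT-ND3 and MT-ND6, the shortest mRNAs, were all among the 7 without. This split and the one by length are therefore not independent. Among 407 nuclear pseudogenes named after mitochondrial genes, 322 were at 0 in all libraries, and 5 of the 23 tested rose and none fell, against 30.7% and 27.6% of all genes tested. The most abundant, MTATP6P1, had 8651, 7835 and 9429 normalized counts in WT and 11056, 10933 and 14716 in Delta-TRRAP (log2 0.50 ± 0.10, adjusted p = 0.000283). MTND2P28 did not pass (log2 0.12 ± 0.07, adjusted p = 0.128), and MTCO1P12 rose 2.13-fold (log2 1.09 ± 0.10, adjusted p = 1.05e-07). MT-ATP6, MT-ND2 and MT-CO1, after which they are named, had log2 fold changes of 0.54, 0.26 and 0.82. Reads of a gene and its copy cannot be told apart where they match.

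Per kilobase of the gene's own length, and among the mRNAs alone, MT-CO3 was the highest in WT (213426 normalized counts per kilobase) and stood apart from the next. It was followed by MT-ND3 (151534), MT-ND2 (138646), MT-CO2 (132472), MT-ATP6 (127755), MT-ND4 (111453) and MT-CO1 (99894), each overlapping with the next. MT-CYB (49901) and MT-ND5 (19674) were the lowest and apart from each other. MT-ND6 (28837) is left out of the order because its tail differs. In Delta-TRRAP, MT-CO3 led (334652), MT-CO2 came next (267457), and MT-ND3 had 142632. The length was not corrected for windows repeated elsewhere in the genome. They made up 50.6% of the 50-base windows of MT-CO1 and 0% of those of MT-ND3, so the order between genes is uncertain.

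To compare the mRNAs with each other free of library scaling, each was taken as a percentage of all counts in the 13 mRNAs of its library. MT-CO2 made up 8.62%, 8.86% and 8.54% of the pool in WT and 11.4%, 11.2% and 11.4% in Delta-TRRAP. MT-CO1 went from 14.9%, 14.3% and 14.96% to 17.1%, 17.2% and 16.5%. Both gained share in every library. MT-ND2, in contrast, had 13.9%, 13.6% and 13.8% of the pool in WT and 10.6%, 10.8% and 10.9% in Delta-TRRAP. MT-ND3 had 4.91%, 5.66% and 4.56% against 3.29%, 3.01% and 2.93%, and MT-ND6 had 1.61%, 1.26% and 1.45% against 0.672%, 0.669% and 1.02%. None of these ranges overlapped. Over the 13 mRNAs, MT-CO1, MT-CO2, MT-ND4 and MT-CYB had a larger share in all Delta-TRRAP libraries, MT-ND1 and MT-CO3 overlapped, and the other 7 had a smaller share. Each non-overlapping share reached the smallest exact permutation p of 0.1, and since shares sum to the whole, a gain in some forces a loss in others.

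In an edgeR fit scaled to this pool in place of the library size, 2 of the 13 mRNAs passed the adjusted p as lower and none as higher, against 51.7% and 13.1% of all genes tested on that scale. They were MT-ND3 (log2 -0.71 ± 0.15, adjusted p = 5.44e-06) and MT-ND6 (log2 -0.87 ± 0.16, adjusted p = 1.23e-07). MT-CO2 (log2 0.39 ± 0.14, adjusted p = 0.01001) lay just outside the threshold and MT-ND2 had log2 -0.36 ± 0.14 (adjusted p = 0.0160). With the replicate number as a block, and with DESeq2, both passed and the count was 4. Neither MT-ND3 nor MT-ND6 passed in the fit scaled to library size, so the difference found here is relative to the other mRNAs. The spread in the pool-scaled fit is estimated partly from all genes tested, most of them outside the pool. The SE of MT-CO2 was 0.14 there and 0.08 on library size, and that of MT-ND6 was 0.16 and 0.19. Which mRNAs passed therefore depends on the other genes as well.

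**Figure D3:**
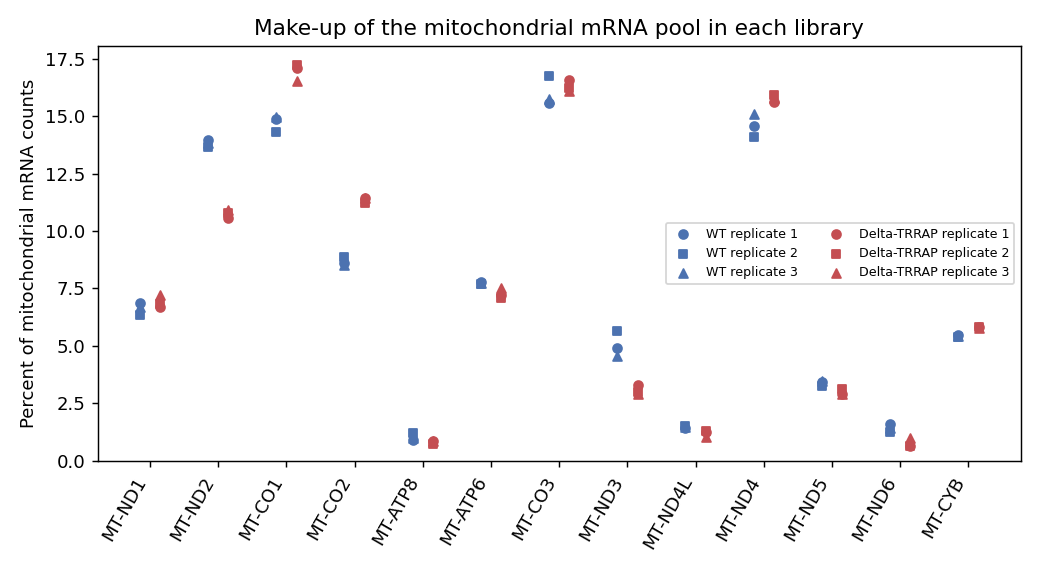
Percentage of the counts of the 13 mitochondrial mRNAs held by each mRNA, 1 point per library (WT blue, Delta-TRRAP red). MT-CO2 moves from 8.54%-8.86% to 11.2%-11.4%, and MT-ND2 from 13.6%-13.9% to 10.6%-10.9%.

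The rRNAs moved in opposite directions. MT-RNR1, the rRNA of the small mitochondrial ribosomal subunit, had normalized counts of 55395, 43904 and 50493 in WT and 28686, 33001 and 39303 in Delta-TRRAP (0.674-fold, log2 -0.57 ± 0.10, adjusted p = 9.85e-05), with no overlap. MT-RNR2, the rRNA of the large subunit, had 360186, 305548 and 333790 against 375801, 399236 and 432906 (1.21-fold, log2 0.27 ± 0.07, adjusted p = 0.00226). The rise of MT-RNR2 was not past the threshold without WT replicate 2 (log2 0.20, adjusted p = 0.0273), nor without it and Delta-TRRAP replicate 3 (log2 0.15, adjusted p = 0.0612). Both lie next to each other on the heavy-strand transcript, with only MT-TV between them. Within libraries, the log2 ratio of MT-RNR1 to MT-RNR2 was -2.70, -2.80 and -2.72 in WT and -3.71, -3.60 and -3.46 in Delta-TRRAP. The difference was -0.85 with no overlap (exact permutation p = 0.1). Like the 2 ratios of overlapping genes above, this ratio was not among the planned measures. It pairs 2 genes that moved in opposite directions, so its separation is not separate support. Against the mRNAs, the log2 ratio of summed rRNA was -1.36, -1.44 and -1.55 in WT and -1.86, -1.82 and -1.96 in Delta-TRRAP, a difference of -0.43 (exact permutation p = 0.1).

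tRNA counts were few and differed with the position of the gene. Of the 22 tRNAs, 10 passed the count filter, 6 had 2 to 29 counts over all libraries together and 6 (MT-TK, MT-TG, MT-TR, MT-TH, MT-TS2 and MT-TL2) had none. A count of 0 allows up to 3 counts, or 1.28e-06% of the 233902913 counts of the series. All 6 lie on the plus strand between 2 same-strand genes, each within 50 bases. The 8 plus-strand tRNAs with such neighbours on both sides had 0 to 4 counts in all. The 6 with a same-strand neighbour on only 1 side had 10 to 1232. On the minus strand the 2 tRNAs with neighbours on both sides had 3 and 10 counts, and the 3 with none had 663 to 1543. Reads that touch 2 genes of the same strand are assigned to neither. Nuclear copies are a further limit: every 50-base window of MT-TQ, MT-TW, MT-TA, MT-TN, MT-TS1, MT-TK and MT-TE was also found elsewhere in the genome. The totals of these tRNAs ran from 0 (MT-TK) to 851 (MT-TW). The part of repeats in the tRNA counts was not tested.

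The 2 tRNAs called lower are shown whole, 5′ to 3′, with the anticodon in capitals (sought as these 3 letters between bases 28 and 40).
MT-TF (chrM:577-647, plus strand): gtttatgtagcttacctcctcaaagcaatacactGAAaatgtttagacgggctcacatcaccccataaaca
MT-TI (chrM:4263-4331, plus strand): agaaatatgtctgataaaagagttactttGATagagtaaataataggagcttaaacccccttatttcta
MT-TF, the phenylalanine tRNA at the start of the heavy-strand transcript, just before MT-RNR1, had normalized counts of 29.4, 29.7 and 20.3 in WT and 7.84, 0.975 and 5.29 in Delta-TRRAP (log2 -2.47 ± 0.41, adjusted p = 7.72e-05). MT-TI, the isoleucine tRNA just after MT-ND1, had 293, 379 and 275 against 84.3, 75.1 and 122 (0.297-fold, log2 -1.76 ± 0.16, adjusted p = 1.20e-07). Neither pair of groups overlapped, and MT-ND1 itself rose. MT-TI ends within MT-TQ on the other strand, sharing 3 bases.

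Other tRNAs past the adjusted p were MT-TW, for tryptophan, with 154, 196 and 154 normalized counts in WT and 118, 102 and 126 in Delta-TRRAP (log2 -0.55 ± 0.13, adjusted p = 0.00157), and MT-TP, for proline, with 335, 283 and 327 against 167, 151 and 287. MT-TP overlapped between groups through Delta-TRRAP replicate 3 (log2 -0.65 ± 0.17, adjusted p = 0.00338) and lost the threshold under DESeq2 (adjusted p = 0.0460), under 3 other settings and without WT replicate 1, WT replicate 3 or Delta-TRRAP replicate 1 (adjusted p up to 0.0277). MT-TW lost it with library size alone (adjusted p = 0.0108) and without WT replicate 2 (log2 -0.43, adjusted p = 0.0125). The other 6 tested tRNAs did not pass, with log2 differences from -0.29 for MT-TA to 1.23 for MT-TY, whose normalized counts were 1.92 to 23.3 in a library. By strand, 3 of the 4 tested plus-strand tRNAs and 1 of the 6 tested minus-strand tRNAs fell, against 27.6% of all genes tested. Within libraries, the log2 ratio of all tRNA counts to mRNA counts was -9.72, -9.52 and -9.87 in WT and -11.0, -11.1 and -10.7 in Delta-TRRAP (difference -1.24, exact permutation p = 0.1). As the mean of log2(count + 0.5) over genes, which weights each tRNA equally, the difference was -0.76. Minus-strand over plus-strand tRNA counts gave 0.17, -0.34 and 0.30 in WT and 0.49, 0.62 and 0.97 in Delta-TRRAP (difference 0.65, exact permutation p = 0.1), but 0.12 without MT-TI.

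For the mRNAs, the strands were compared as MT-ND6 over the 12 plus-strand mRNAs. The log2 ratio was -5.94, -6.29 and -6.08 in WT and -7.21, -7.21 and -6.61 in Delta-TRRAP. The groups did not overlap, and the difference of -0.91 was -1.20 without WT replicate 2 and Delta-TRRAP replicate 3 (exact permutation p = 0.1 over all libraries). On the library-size scale 10 of the 12 plus-strand mRNAs rose and MT-ND6 did not pass.

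**Figure D4:**
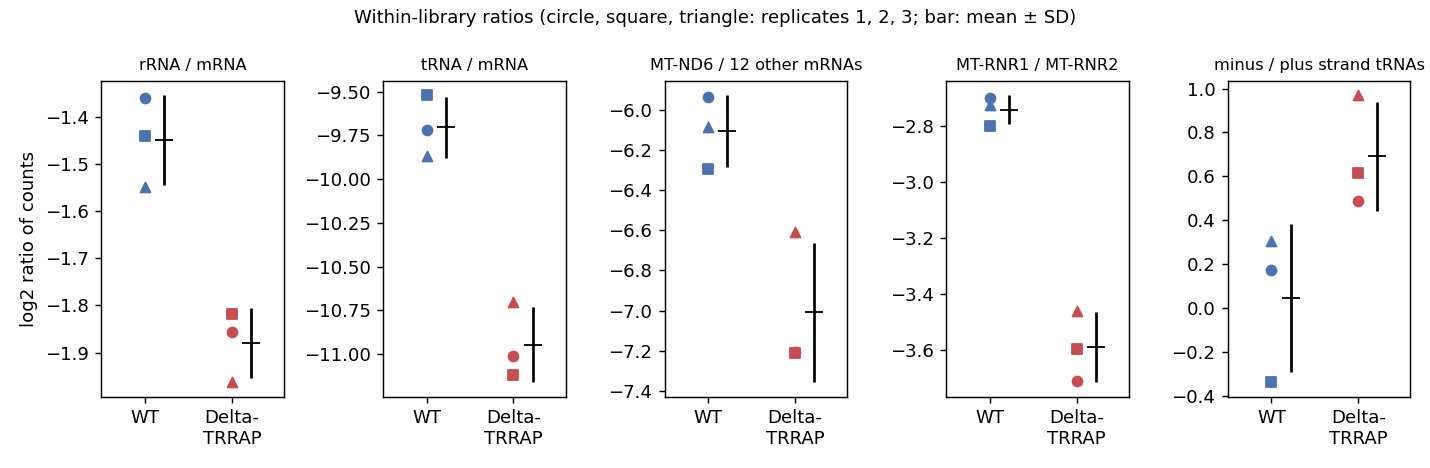
log2 ratios of summed counts within each library for 5 pairs of classes or genes, each panel with its own axis. Points are libraries (WT blue, Delta-TRRAP red) and bars are means with SD over 3 libraries. In every panel the groups are apart. MT-RNR1 over MT-RNR2, which was not among the planned measures, goes from -2.80 to -2.70 in WT and from -3.71 to -3.46 in Delta-TRRAP.

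The nuclear-encoded genes that transcribe, process, tail and degrade mitochondrial RNA were examined from lists. Tested genes numbered 9 for transcription, 25 for processing, 15 for polyadenylation and turnover, 21 for replication, 21 for tRNA charging and 10 for biogenesis. None of them was called higher and 2 were called lower, against 16.5% and 6.08% of all genes tested. Of 9 transcription genes, 6 fell and none rose, against 27.6% and 30.7% of all genes tested. TFB2M, the factor that opens the promoter for the mitochondrial RNA polymerase, had 6061, 5408 and 5536 normalized counts in WT and 2407, 2372 and 2624 in Delta-TRRAP (log2 -1.20 ± 0.06, adjusted p = 1.12e-10). TFAM, which packages the genome and activates transcription, had 16920, 17021 and 16425 against 10072, 9865 and 10154 (log2 -0.74 ± 0.05, adjusted p = 2.32e-09). POLRMT, the polymerase, had 2654, 2470 and 2579 against 1595, 1532 and 1455 (log2 -0.75 ± 0.05, adjusted p = 8.35e-09). TEFM, its elongation factor, fell by 0.30 on the log2 scale (adjusted p = 0.000711). These transcripts were lower in the libraries in which most mitochondrial mRNAs were higher.

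Of 15 genes of polyadenylation and turnover, 11 fell and 1 rose, against the same 27.6% and 30.7%, with a median log2 fold change of -0.46. SLIRP, which binds and stabilises mitochondrial mRNAs together with LRPPRC, had normalized counts of 4109, 3834 and 3236 in WT and 1874, 1530 and 1798 in Delta-TRRAP (log2 -1.10 ± 0.09, adjusted p = 1.83e-08). LRPPRC had 25852, 25517 and 25959 against 17578, 18708 and 17566 (log2 -0.52 ± 0.05, adjusted p = 1.94e-07). On the degrading side, PNPT1, the polynucleotide phosphorylase, fell by 0.64 on the log2 scale (adjusted p = 2.20e-08) and SUPV3L1, the helicase that works with it, by 0.30 (adjusted p = 9.46e-05). MTPAP, the poly(A) polymerase, fell by 0.19 (adjusted p = 0.00454). The 1 that rose was PDE12, an enzyme that removes poly(A) tails from mitochondrial RNA (log2 0.18 ± 0.05, adjusted p = 0.00893). FASTK, FASTKD5 and ANGEL2 did not pass. PDE12 and these 3 were named after their values were seen.

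Processing and modification were mixed, with 9 of 25 genes lower, 3 higher and 13 not past the threshold. Of 21 tested replication genes 12 fell and 3 rose, beside 27.6% and 30.7% over all genes. POLG, the DNA polymerase, fell by 0.26 on the log2 scale (adjusted p = 0.000290), TWNK, the helicase, by 0.55 (adjusted p = 2.44e-07) and SSBP1, the single-strand binding protein, by 0.39 (adjusted p = 2.60e-05). Mitochondrial DNA itself was not measured. The median log2 fold changes of the lists ranged from -0.46 to -0.09, against 0.03 for all genes tested.

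**Figure D5:**
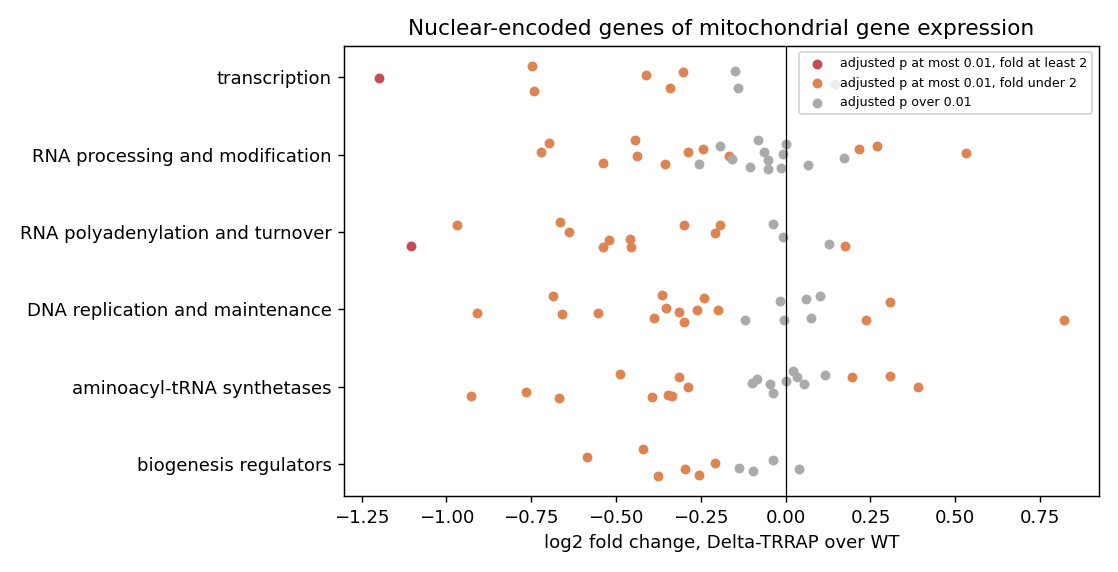
log2 fold change of Delta-TRRAP over WT for each tested gene of 6 lists of nuclear-encoded mitochondrial genes, 1 point per gene and jittered within its list. Colours give the adjusted p and fold. TFB2M and SLIRP, at -1.20 and -1.10, are the 2 red points.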

How the data were processed

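For each of 6 libraries the authors deposited raw counts per gene: reads mapping uniquely to hg38 with STAR were counted with HTSeq 2.0.2 in reverse-stranded union mode. Read length is not given in the sources used here. The authors' normalized table and their own comparison (log2 fold changes and p-values from DESeq2) were not used. Groups and replicate numbers came from sample titles. Replicates are described as biological.

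To normalize, each count was divided by its library's TMM-scaled size (geometric mean of sizes set to 1). Genes with a mean of at least 5 entered glmQLFit and glmQLFTest of edgeR 4.0.16 (R 4.3.3), with group as the term, and checked on simulated counts. SE is the log2 fold change divided by the root of F. Ratios were tested by exact two-sided permutation (SciPy 1.17.1), and the 21 p-values (8 measures, 13 shares) were not adjusted, since none can be under 0.1. Sequences and positions came from GRCh38 with GENCODE release 44. The windows were exact matches on either strand. All 37 members were named. Nuclear genes were named by a list of 12 and where called. Members and lists were chosen with earlier results of these data known. Replicate numbers did not pair libraries (correlations of deviations -0.0235 to -0.00747). As alternatives, DESeq2 1.42.0 and limma-voom, further scalings, filters and thresholds, a replicate block and the omission of libraries were tried. The floor of 3 counts covers counting error only, whereas SEs and SDs also hold the spread between libraries of a clone.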

Additional observations from a re-analysis of the deposited data

How the results depend on the processing

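Counts were too few to test 12 tRNAs. Over all genes, the median log2 fold change was 0.03, and 0.17 when scaled by library size alone. The 1 mitochondrial gene called higher became 0 with no filter on low counts, 0 to 1 when a library was left out, 0 without WT replicate 2 and Delta-TRRAP replicate 3 (a pair chosen after seeing the data) and 6 at a fold of 1.5. The 2 called lower became 1 at a minimum mean of 50. The 5 past the adjusted p as lower became 3 there and 3 with library size alone. The 2 nuclear list genes called lower became 1 with library size alone and, at a fold of 1.5, 17 (1 higher, 16 lower). The 5 pseudogenes past the adjusted p, all higher, became 3 to 5 when a library was left out and 3 without both libraries.

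The 2 mRNAs past the adjusted p against the pool became 4 (1 higher) with DESeq2, 4 (1 higher) with the replicate block, 5 (1 higher, 4 lower) at an adjusted p of 0.05, and 5 (2 higher) without both libraries. When a library was left out, 0 to 1 were higher. The replicate block gave 12 genes past the adjusted p as higher in place of 11, MT-ND2 being added (adjusted p = 0.00637).

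Without both libraries, the median over the mRNAs was 0.32, the share differed by 1.47 points, and the log2 ratios differed by -1.20 (MT-ND6 to other mRNAs), 0.31 (minus to plus tRNAs) and -0.28 (MT-ND4L to MT-ND4). As means of log2(count + 0.5), rRNA to mRNA differed by -0.62, tRNA to mRNA by -0.76 and minus to plus tRNAs by 0.0821. From summed counts, minus to plus tRNAs differed by 0.12 without MT-TI. Signs turned for MT-ND3 (0.0149 with upper-quartile scaling, 0.0458 with library size alone), MT-TT (0.0108 with library size alone), MT-TQ (-0.0694 without both libraries) and MT-ND1 against the pool (-0.00498 without both). When a library was left out, values ran from -0.0474 to 0.375 for MT-TQ, turning without Delta-TRRAP replicate 3, and from -0.432 to 0.0203 for MT-TS1 and -0.847 to 0.0254 for MT-TE, turning without Delta-TRRAP replicate 1. None of the turned values passed the threshold. The cause was not tested.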

Other observations

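Genes for the charging of mitochondrial tRNAs and for mitochondrial biogenesis were also tested. Of 21 tested genes for aminoacyl-tRNA synthetases and related enzymes, 9 fell, 3 rose and 9 did not pass the adjusted p of 0.01 by edgeR, and none was called at a fold of 2. Of 10 tested biogenesis regulators, 6 fell and none rose. Over all genes tested, 27.6% fell and 30.7% rose. The median log2 fold changes were -0.09 and -0.23.

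RNAs without a usual poly(A) tail were followed because rRNAs and tRNAs are among the members. Of 21 such nuclear-encoded RNAs, 10 were tested and 9 were at 0 in all libraries. Of the 10, 7 rose and 1 fell by edgeR, against 30.7% and 27.6% of all genes tested. The 7 that rose were histone genes, such as HIST1H4H (log2 2.17 ± 0.05, adjusted p = 5.35e-14), and HIST2H2BE (log2 2.63 ± 0.05, adjusted p = 7.06e-15), and some replication-type histone genes also give poly(A) transcripts. The histone gene HIST1H4C did not pass (log2 -0.44 ± 0.22, adjusted p = 0.0847). RN7SL1, the RNA of the signal recognition particle, fell by 0.61 on the log2 scale (adjusted p = 0.000168). T cell markers summed to 509 to 514 normalized counts per WT library and 414 to 456 per Delta-TRRAP library, and B cell markers to 39.5 to 46.0 and 28.4 to 44.8.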
